A study of Mus musculus with 18 samples.

Results

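Liver transcripts of mice (male, C57BL6) fed PFNA in a low-fat diet were compared with those of mice fed the same diet with no compound. The comparison uses 6 of the 18 arrays of the series, 3 labelled low-fat diet with PFNA and 3 labelled low-fat diet alone, chosen by their titles. The low-fat diet gave 10% of its energy as fat, and PFNA is perfluorononanoic acid, a fluorinated surfactant with a carboxylic acid head group. The mice were 6 weeks old when the diets began and 18 weeks old at death, after 12 weeks on the diets. Of the remaining groups, 3 are used beside this comparison, each of 3 arrays: the low-fat diet with PFOS (perfluorooctane sulfonic acid), the high-fat diet alone and the high-fat diet with PFNA, the high-fat diet giving 45% of its energy as fat. The study's title concerns how diet alters the effect of both compounds on fatty liver. The labels state neither how much PFNA or PFOS was fed nor whether an array held RNA of 1 animal or a pool. They call the 3 arrays of a group biological replicates without saying more. The p-values therefore measure the spread between arrays of the same group, pooled over all 18 arrays. Whole liver was profiled, so fewer cells of a type and less RNA per cell cannot be told apart.

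Fluorinated acids of this kind resemble fatty acids and are known to act on nuclear receptors of the hepatocyte. CAR and PXR are receptors for foreign compounds, and their targets oxidise such compounds (the Cyp2b, Cyp2c and Cyp3a cytochromes P450), conjugate them and export them. PPARA is the fatty acid receptor, and its targets carry out peroxisomal and mitochondrial fatty acid oxidation and, through the Cyp4a enzymes, hydroxylation at the omega end of the chain. NRF2 is the transcription factor of the antioxidant response, with Nqo1 and several glutathione S-transferases among its targets.

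The promoter windows of 5 genes that rose are printed here because 3 of them, Cyp2b10, Gstm3 and Cyp2c55, had the largest rises of any named gene, and the other two belong to neighbouring Cyp3a genes that rose together. Each runs from 250 bases before to 50 bases after the RefSeq start in GRCm38.p6, in the direction of the gene, and capitals mark TATAAA and AGGTCA, the core motif of many nuclear receptors, both searched on both strands. The windows are chr7:25897408-25897707 on the plus strand for Cyp2b10, chr3:107969125-107969424 on the minus strand for Gstm3, chr19:39006769-39007068 on the plus strand for Cyp2c55, chr5:145879805-145880104 on the minus strand for Cyp3a11 and chr5:145805825-145806124 on the minus strand for Cyp3a44.
Cyp2b10: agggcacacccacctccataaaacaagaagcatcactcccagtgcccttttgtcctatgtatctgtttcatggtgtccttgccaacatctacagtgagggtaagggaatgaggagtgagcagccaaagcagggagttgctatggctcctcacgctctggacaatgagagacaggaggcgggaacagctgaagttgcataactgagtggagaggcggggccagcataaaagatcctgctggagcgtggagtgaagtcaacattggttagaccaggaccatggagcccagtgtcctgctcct
Gstm3: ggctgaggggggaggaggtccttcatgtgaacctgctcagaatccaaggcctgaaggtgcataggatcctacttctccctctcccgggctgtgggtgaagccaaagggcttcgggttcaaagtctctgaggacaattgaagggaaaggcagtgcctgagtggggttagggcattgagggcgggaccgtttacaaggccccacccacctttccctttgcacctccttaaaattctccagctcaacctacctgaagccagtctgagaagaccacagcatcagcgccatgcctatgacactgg
Cyp2c55: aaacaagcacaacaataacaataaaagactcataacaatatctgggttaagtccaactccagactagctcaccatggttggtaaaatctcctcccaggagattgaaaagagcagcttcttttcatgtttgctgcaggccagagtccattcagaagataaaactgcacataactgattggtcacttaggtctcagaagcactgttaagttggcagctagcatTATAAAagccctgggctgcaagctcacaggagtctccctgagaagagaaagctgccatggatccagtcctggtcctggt
Cyp3a11: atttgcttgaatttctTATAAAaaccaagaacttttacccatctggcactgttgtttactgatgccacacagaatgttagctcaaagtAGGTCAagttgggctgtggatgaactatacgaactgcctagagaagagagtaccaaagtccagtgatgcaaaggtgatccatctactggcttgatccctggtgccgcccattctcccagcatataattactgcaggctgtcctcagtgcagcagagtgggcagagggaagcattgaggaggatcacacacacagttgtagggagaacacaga
Cyp3a44: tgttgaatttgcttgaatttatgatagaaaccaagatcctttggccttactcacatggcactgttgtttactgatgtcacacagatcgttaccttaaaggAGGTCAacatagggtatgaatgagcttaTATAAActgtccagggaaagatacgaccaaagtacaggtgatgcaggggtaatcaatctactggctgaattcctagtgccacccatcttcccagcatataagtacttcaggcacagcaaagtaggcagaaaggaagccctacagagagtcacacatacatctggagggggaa
The Cyp2c55 window held TATAAA 29 bases before the start. The Cyp3a11 window held AGGTCA 162 bases and TATAAA 234 bases before the start, while the Cyp3a44 window held AGGTCA 150 bases and TATAAA 122 bases before it. Neither motif was present in the windows of Cyp2b10 and Gstm3, which says only that these letters are not in the stretch shown. A promoter was matched for 86 of the 106 named genes that rose, and AGGTCA lay in 18 of these windows (20.9%), against 16.4% of the 16990 measured genes with a window. TATAAA lay in 11 of the 86 (12.8%, against 14.3%), the antioxidant element core TGACNNNGC in 10 (11.6%, against 14.9%) and the STAT5 motif TTCNNNGAA in 9 (10.5%, against 9.15%). These shares are a description of the windows and not of binding.

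Values are log2 signals, and a difference between groups is given on the same log2 scale. Signals of different genes come from different probes and are not compared with each other. A gene is said to have risen or fallen where limma's test, fitted over all 18 arrays and 34472 probes, gave a Benjamini-Hochberg adjusted p under 0.05. The array medians lay between 4.43 and 4.59. The 6 arrays correlated with each other at 0.98 to 0.99 over all probes, and no 2 arrays of the series shared more than 1.83% of their values. On the first principal component, 1 array of the PFOS group on the low-fat diet and 1 of the PFNA group on the high-fat diet (replicate 3 of each) lay apart from the others of their groups, with scores of 32.9 and 32.4, while the 6 arrays compared here lay between -22.9 and -10.3. The 3 arrays of the high-fat diet with PFOS had first-component scores between 27.8 and 38.6. They stayed in every fit but that of the compared groups alone. On the second component the 3 low-fat controls lay between 21.6 and 27.9 and the 3 low-fat PFNA arrays between -26.5 and -19.2. Hepatocyte markers bore out the tissue label: all 9 measured were above the median signal, albumin (Alb) lay between 13.84 and 13.93 in the 6 arrays, and no hepatocyte marker rose or fell.

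On the low-fat diet PFNA changed 195 probes (0.566%), of which 129 were higher (0.374%) and 66 lower (0.191%), and 4435 probes (12.9%) had an unadjusted p under 0.05. Among 22180 genes taken at 1 probe each, 112 rose (0.505%) and 24 fell (0.108%). All 3 PFNA arrays lay beyond all 6 unexposed arrays of both diets for 113 of the 129 higher probes and for 62 of the 66 lower ones, against 5.09% of all probes above and 3.97% below; 3 of the 6 unexposed arrays are the low-fat controls that made the calls, so most of this was set by the choice of probes. Of the lower probes, 39 (59.1%) had no gene assigned, compared with 26.5% of all probes. The probe with the largest fall was one of these, with 7.92, 9.52 and 9.31 in the controls and 5.86, 3.81 and 5.80 under PFNA, a fall of 3.76 (SE 0.64, adjusted p = 0.0125). The number of calls rested on single arrays. Leaving out control replicate 1, 2 or 3 gave 63, 45 or 127 calls. Leaving out PFNA replicate 1, 2 or 3 gave 86, 84 or 26, and the 26 calls without replicate 3 were all among the 195. It was 523 when probes of low signal were left out and 593 without the 2 arrays that lay apart. A fit of these 6 arrays alone gave 194 calls, 89 of them among the 195, and ended those of Cyp2b9, Themis, Vmn1r127, Btbd35f16, Ppargc1a, Ip6k2, Cyp2d37-ps, Tspan31, Foxn3, Aldh1a1, Nqo1, Ces1g, Ces1e, Cyp4a12b, Pnpla2 and Lipe (adjusted p up to 0.12), as well as those of Cyp3a11 and Ephx1 (0.0646 and 0.0619).

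**Figure D1:**
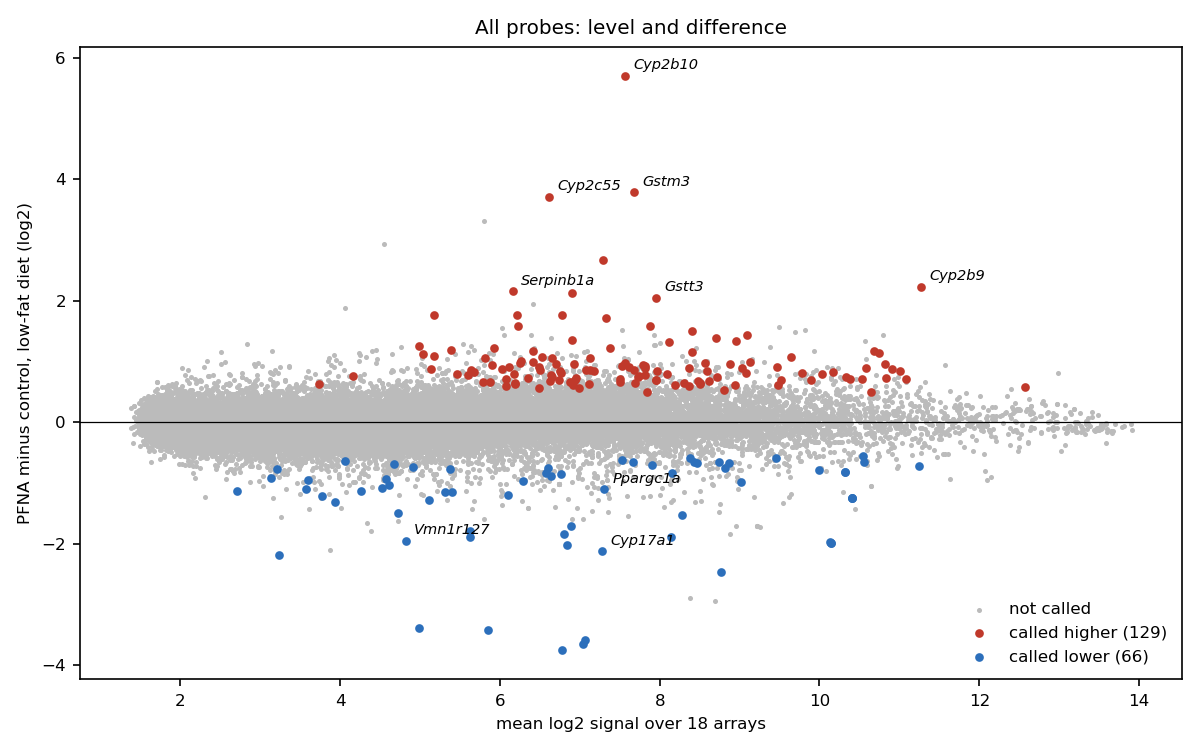
Each point is 1 of 34472 probes, placed by its mean log2 signal over 18 arrays (horizontal) and by the low-fat difference of PFNA minus control in log2 (vertical), with called probes in red (129 higher) and blue (66 lower). Cyp2b10 stands highest at 5.71, followed by Gstm3 at 3.79 and Cyp2c55 at 3.72. Of the called probes, 2 of the 129 higher and 10 of the 66 lower have a mean signal below the median of all values.

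Cytochromes P450 that oxidise foreign compounds included the gene with the largest rise, Cyp2b10. Of 17 measured P450 targets of CAR and PXR, 5 rose (29.4%, against 0.505% of all genes) and 0 fell, and 16 of the 17 differences were above 0. In 14 of the 17 all 3 PFNA arrays lay above all 3 controls (12.8% of all genes did), and the median difference of the list was 0.82 against 0.01 over all genes. This list and those below were chosen with earlier results of these data known, so their shares against all genes are a description. The shares of all genes that stand beside every list below are 0.505% for rises and 0.108% for falls. Cyp2b10, the classic CAR target, had 4.58, 3.81 and 4.17 in the controls, near the median of all signals (4.48), and 9.44, 10.34 and 9.91 under PFNA. The groups did not overlap, and the rise was 5.71 (SE 0.67, 95% confidence interval 4.29 to 7.13, adjusted p = 0.00125).

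Cyp2c55, a Cyp2c enzyme that is low in untreated liver, had 3.87, 4.20 and 4.69 in the controls and 7.43, 8.40 and 8.08 under PFNA. Every PFNA array exceeded every control, and the rise was 3.72 (SE 0.47, adjusted p = 0.00196). A second probe for Cyp2c55, with a lower mean signal, gave 0.23 (adjusted p = 0.835), so the probes disagreed. Cyp2b9, a Cyp2b gene that is female-predominant, had 7.93, 9.35 and 10.07 in the controls and 10.76, 11.32 and 11.97 under PFNA. Its controls differed among themselves by nearly as much as its rise of 2.23 (SE 0.41, adjusted p = 0.0205), yet the groups did not overlap. Cyp3a44, another female-predominant gene, rose by 1.77 (SE 0.37, adjusted p = 0.0347) from 3.73, 3.74 and 4.53 to 5.36, 6.02 and 5.92. Cyp3a11, the main PXR-controlled Cyp3a gene of mouse liver, had 9.59, 10.34 and 9.99 in the controls and 10.88, 11.51 and 11.03 under PFNA, a rise of 1.17 (SE 0.24, adjusted p = 0.0324) from a high level.

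Cyp2b13 gave 4.0, 3.98 and 3.45 in the controls and 5.61, 6.47 and 9.32 under PFNA. Its difference of 3.32 was the third largest of the list but its arrays were far apart, and it did not pass (SE 1.0, adjusted p = 0.138). Cyp2c29, among the most abundant P450 transcripts, was higher in all 3 PFNA arrays (13.23 to 13.47, against 12.38 to 12.73) and narrowly missed the threshold (0.82, adjusted p = 0.0547). Cyp2b, Cyp2c and Cyp3a genes are near-identical neighbours and probes may pick up relatives, so which member carried a signal is uncertain. The calls of Cyp2b10 and Cyp2c55 held without any 1 of the 6 arrays (highest adjusted p = 0.0137 and 0.0179). That of Cyp2b9 ended without control replicate 1 or 2 or PFNA replicate 2 or 3 (adjusted p up to 0.12), that of Cyp3a44 without any array but control replicate 3 (up to 0.162), and that of Cyp3a11 without any 1 of the 6 (up to 0.14).

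Of 16 measured nuclear receptors and cofactors 0 rose by limma's test and 1 fell, 4 had an unadjusted p under 0.05, and the median difference was -0.04. The largest difference above 0 was that of Pparg, the adipogenic receptor, at 1.11 (SE 0.33, adjusted p = 0.131). CAR (Nr1i3) differed by 0.19 (adjusted p = 0.749), PXR (Nr1i2) by 0.36 (adjusted p = 0.373), PPARA (Ppara) by -0.08 (adjusted p = 0.851) and NRF2 (Nfe2l2) by 0.06 (adjusted p = 0.94). The member that fell was Ppargc1a, a coactivator that drives mitochondrial and gluconeogenic genes, which had 7.64, 7.88 and 8.10 in the controls and 6.40, 6.99 and 6.93 under PFNA. Each PFNA array lay below the 6 unexposed arrays of both diets, and the fall was 1.10 on the log2 scale (SE 0.20, adjusted p = 0.0163). That call ended without control replicate 2 or 3 or PFNA replicate 1 or 3 (adjusted p up to 0.0766). Of 12 genes of heme synthesis and of electron supply to P450s, 0 passed limma's test (3 had an unadjusted p under 0.05), and the largest differences were Hmox1, the heme-degrading enzyme, at 0.97 (adjusted p = 0.131) and Urod, an enzyme of heme synthesis, at -0.59 (adjusted p = 0.0577).

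**Figure D2:**
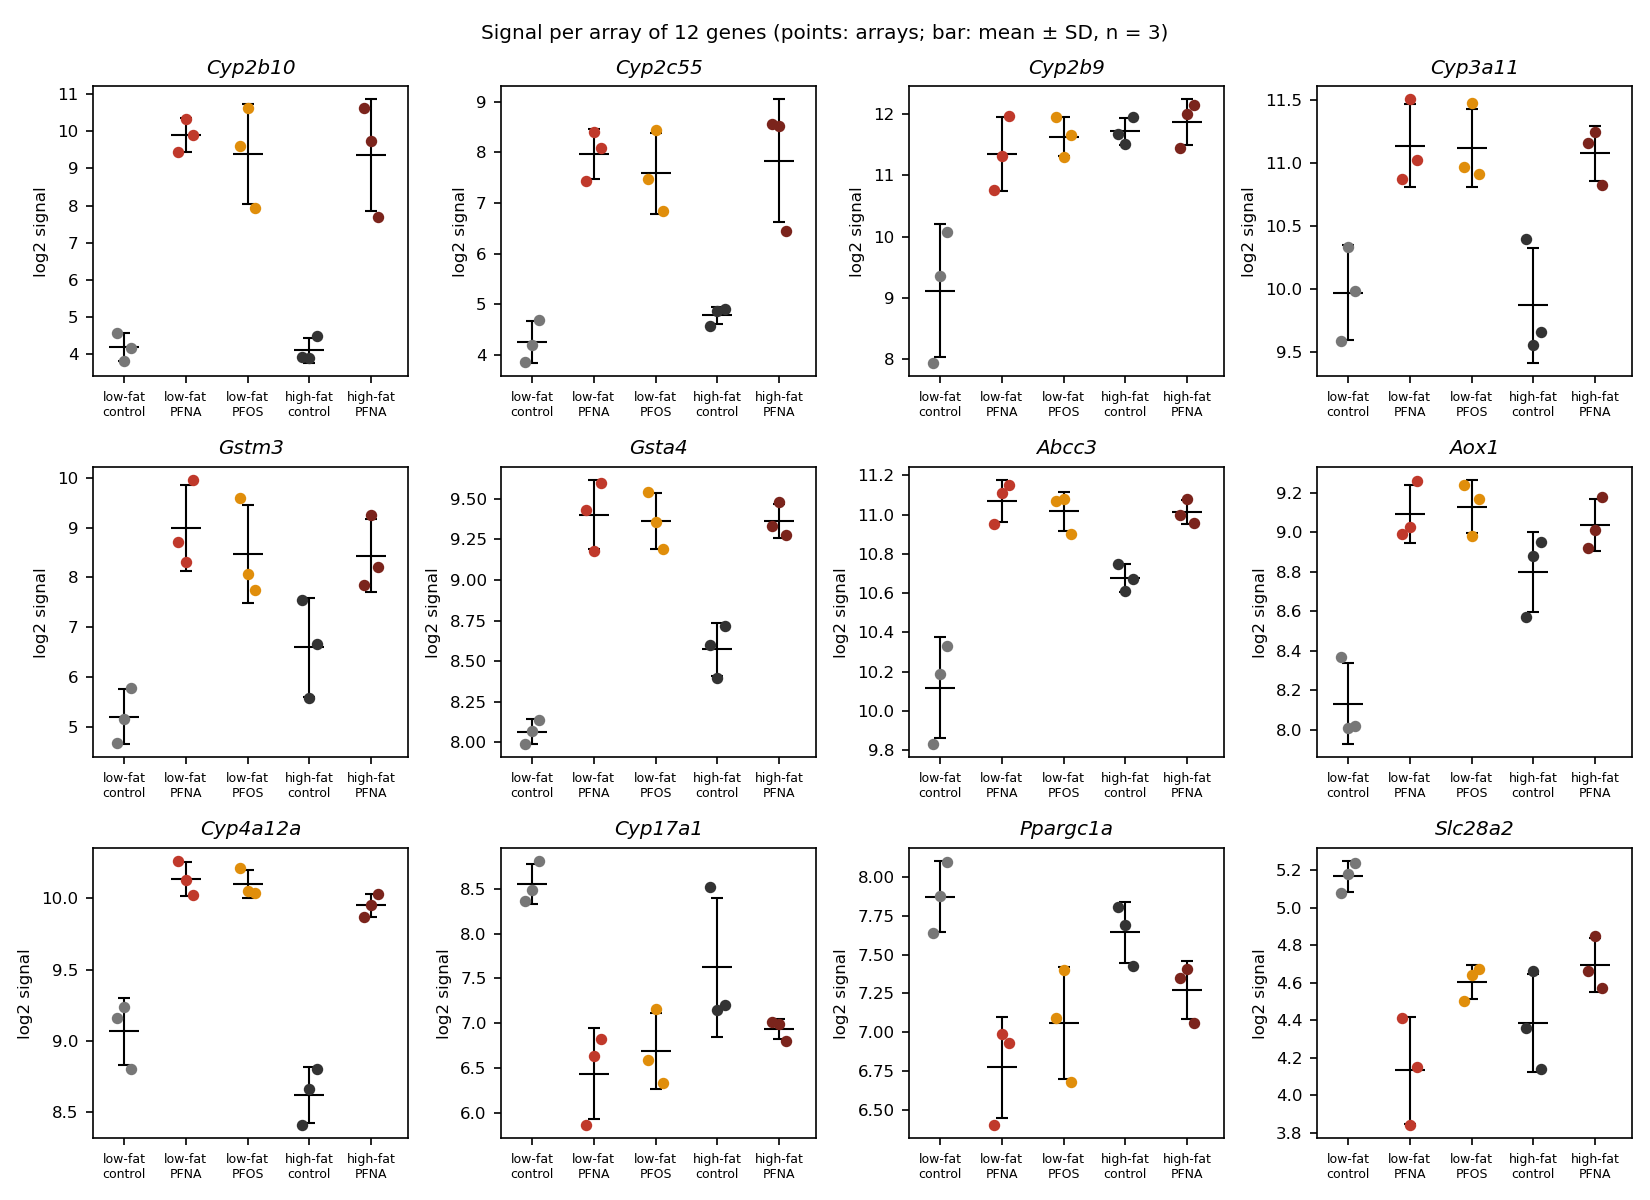
Each panel gives the log2 signal (vertical axis) of 1 gene in every array of 5 groups of 3 arrays (horizontal axis), with points for arrays and a bar for the mean and SD. For Cyp2b10 the 3 low-fat PFNA arrays lie between 9.44 and 10.34 and the 3 low-fat controls between 3.81 and 4.58. Cyp2b9 shows high-fat controls between 11.52 and 11.96, close to the arrays of both PFNA groups.

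Some enzymes of the later steps and 1 pump rose as well. Of 16 measured CAR and PXR targets in conjugation, hydrolysis, transport and cofactor supply, 4 rose (25%, against 0.505% of all genes) and 0 fell. Their median difference was 0.58. Gstm3, a glutathione S-transferase, had 4.68, 5.15 and 5.78 in the controls and 8.71, 8.31 and 9.95 under PFNA, and its rise of 3.79 (SE 0.65, adjusted p = 0.0128) was the second largest of any named gene. Gstt3, of the theta class, rose by 2.05 (SE 0.38, adjusted p = 0.0208) from 6.68, 7.06 and 7.27 to 8.88, 8.95 and 9.34. Abcc3, a pump that exports conjugates into blood, had 9.83, 10.19 and 10.33 in the controls and 10.95, 11.11 and 11.15 under PFNA. It rose by 0.95 (SE 0.13, adjusted p = 0.00439), its PFNA arrays spanning a narrower range than its controls. Aldh1a1, a retinal dehydrogenase at a very high signal, rose by 0.59 (SE 0.12, adjusted p = 0.0274). Gstm1, of the mu class, was higher in all PFNA arrays (8.94 to 9.20, against 7.84 to 8.27) and narrowly missed the threshold (1.0, adjusted p = 0.0515). Mu-class genes resemble each other closely, so a probe may register more than 1 of them.

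Of 22 measured NRF2 targets 6 rose (27.3%, against 0.505% of all genes) and 0 fell, and the median difference was 0.37. An unadjusted p under 0.05 in limma's test was found for 10 of the 22 (45.5%, against 13.3% of all genes). Gstm3, Gstm1 and Abcc3 stand in this list as well as in the one before. Gsta4, which detoxifies products of lipid peroxidation, had 7.99, 8.07 and 8.14 in the controls and 9.43, 9.18 and 9.60 under PFNA. Its rise of 1.34 (SE 0.14, confidence interval 1.03 to 1.64), or 2.53-fold, had the smallest adjusted p of the named genes (5.36e-04), since its arrays differed little within groups. Aox1, aldehyde oxidase, rose by 0.96 (SE 0.14, adjusted p = 0.00614), from 8.37, 8.01 and 8.02 to 8.99, 9.03 and 9.26. Nqo1, the quinone reductase, rose by 0.91 (SE 0.20, adjusted p = 0.0495), from 5.73, 5.91 and 5.45 to 6.43, 6.39 and 7.01, and was the 1 of 7 AHR targets to rise. Ephx1, microsomal epoxide hydrolase, rose by 0.71 (SE 0.11, adjusted p = 0.0102). Among NRF2 targets without a call, Hmox1 gave 0.97 (adjusted p = 0.131), Gstm1 1.0 and Osgin1 0.79 (adjusted p = 0.129). Smaller differences were those of Gclc, the catalytic subunit of glutathione synthesis, 0.40 (adjusted p = 0.24), and Gclm, its modifier subunit, 0.05 (adjusted p = 0.9). Txnrd1, thioredoxin reductase, gave 0.24 (adjusted p = 0.39) and Srxn1, sulfiredoxin, -0.06 (adjusted p = 0.92). The classic AHR target Cyp1a1 differed by -0.11 (adjusted p = 0.853). The calls of Abcc3, Gsta4 and Aox1 held without any 1 of the 6 arrays (highest adjusted p = 0.0268, 0.00748 and 0.0462). Those of Nqo1 and Aldh1a1 ended without any 1 of the 6 (adjusted p up to 0.215 and 0.171), that of Gstm3 without control replicate 1 or 2 or PFNA replicate 3 (up to 0.0935), that of Gstt3 without any but control replicate 3 (up to 0.113) and that of Ephx1 without PFNA replicate 3 (0.0744).

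Carboxylesterases, which hydrolyse esters of drugs and lipids, rose in 4 of 12 measured members (33.3%, against 0.505% of all genes), and 0 fell. Ces2e had 7.92, 8.30 and 8.14 in the controls and 9.46, 9.45 and 9.74 under PFNA, a rise of 1.43 (SE 0.26, adjusted p = 0.019). Ces2g rose by 1.16 (SE 0.23, adjusted p = 0.0265), Ces1g by 1.14 (SE 0.25, adjusted p = 0.047) and Ces1e by 0.69 (SE 0.14, adjusted p = 0.0295). In these 4 genes all PFNA arrays lay above all low-fat controls (12.8% of all genes did), which their calls made likely. The genes lie in a family of close copies, and each call rested on all or most arrays: Ces2e, Ces1g and Ces1e lost theirs without any 1 of the 6 (adjusted p up to 0.108, 0.2 and 0.11), and no more than 1 of the 4 calls was made without any given array.

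**Figure D3:**
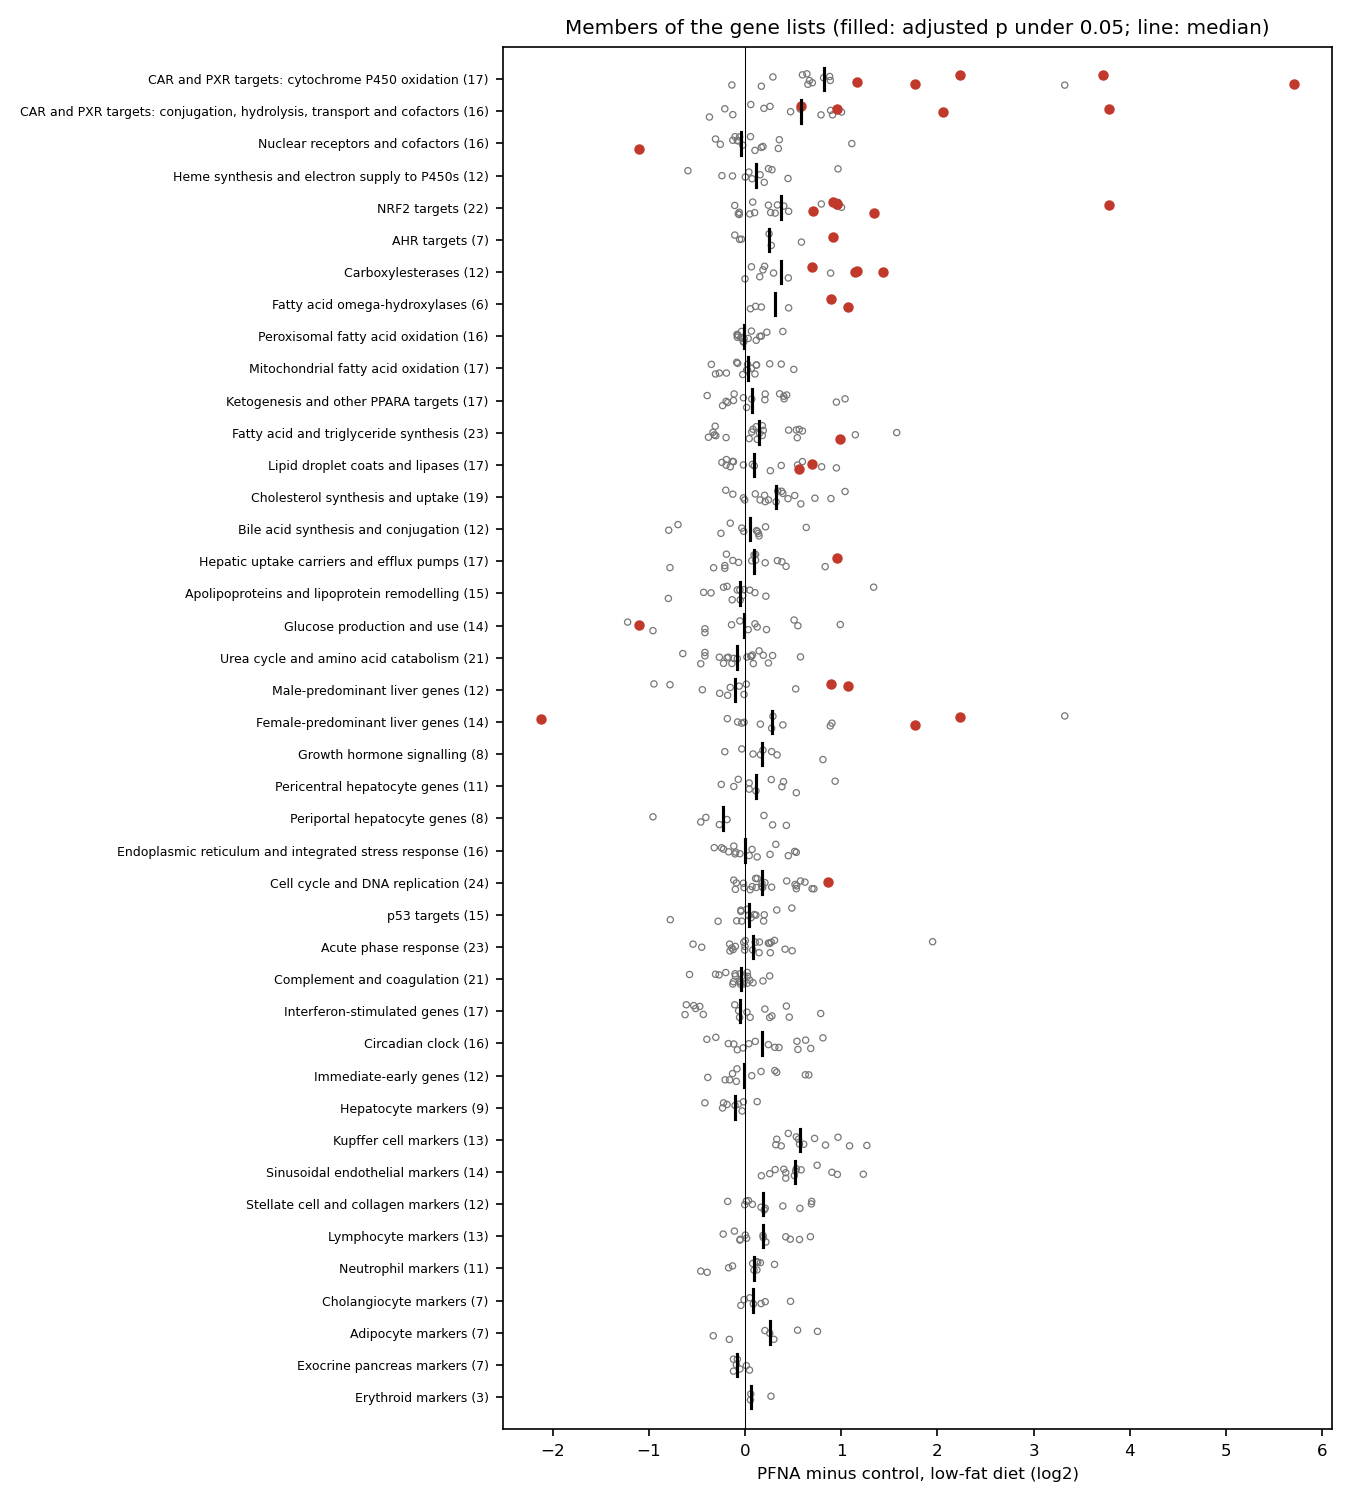
Every row is a gene list with its number of measured members, every point is 1 member placed by its low-fat difference of PFNA minus control (log2, horizontal axis), filled points passed the adjusted threshold, and the bar is the median of the list. The P450 list has the rightmost points and a median of 0.82, the peroxisomal list is bunched around -0.01, and the Kupffer and endothelial markers lie to the right of 0 with no filled point.

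Most targets of PPARA gave no call. Of 16 measured peroxisomal oxidation genes 0 passed limma's test, 0 had an unadjusted p under 0.05, and the median difference was -0.01. Ehhadh, the peroxisomal bifunctional enzyme and a standard PPARA target, had 11.66, 11.31 and 11.29 in the controls and 11.21, 11.49 and 11.51 under PFNA, and the overlapping groups differed by -0.02 (confidence interval -0.86 to 0.82, adjusted p = 0.993). Among 17 mitochondrial oxidation genes 0 passed (2 with an unadjusted p under 0.05, median 0.03), as among 17 genes of ketogenesis and other PPARA outputs (2 unadjusted, median 0.07). Pdk4, a kinase that shuts off pyruvate oxidation, ranged from 6.57 to 7.61 in the controls and from 6.50 to 7.83 under PFNA, a difference of 0.21 with an interval too wide to place it (-1.50 to 1.92). Acot1, a cytosolic acyl-CoA thioesterase, differed by 0.41 (adjusted p = 0.709), and Cd36, a fatty acid translocase, by 1.04 (adjusted p = 0.13).

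Among the omega-hydroxylases 2 of 6 measured members rose (33.3%, against 0.505% of all genes), Cyp4a12a and Cyp4a12b, with a median of 0.31. Cyp4a12a had 9.16, 9.24 and 8.80 in the controls and 10.26, 10.13 and 10.02 under PFNA, a rise of 1.07 (SE 0.14, adjusted p = 0.00203) that held without any 1 array (highest adjusted p = 0.0206). Its near-identical neighbour Cyp4a12b rose by 0.90 (SE 0.19, adjusted p = 0.0344) from 10.21, 10.65 and 9.87 to 11.28, 11.10 and 11.04, a call that ended without any array but control replicate 2 (adjusted p up to 0.13). Both are male-predominant, and the signals of the pair may be shared. Whether PPARA had a part in the rise of the pair was not tested. Cyp4a14, a strongly PPARA-controlled member, stayed between 12.86 and 13.11 in the controls and between 13.02 and 13.21 under PFNA, a difference of 0.17 (adjusted p = 0.643).

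Lipid handling showed single calls. Of 23 measured genes of fatty acid and triglyceride synthesis 1 rose, Mid1ip1, an activator of acetyl-CoA carboxylase, with 5.59, 5.55 and 5.48 in the controls and 6.54, 6.57 and 6.48 under PFNA (0.99, SE 0.19, adjusted p = 0.024). Its other 2 probes, of lower signal, gave -0.16 and 0.11. Thrsp, its relative in lipogenesis, gave 1.58 and missed the threshold (adjusted p = 0.0721), and Fasn, fatty acid synthase, gave 0.60 (adjusted p = 0.678). Of 17 lipid droplet genes 2 rose, both lipases. Pnpla2, the lipase that starts triglyceride breakdown, had 8.92, 9.19 and 8.95 in the controls and 9.60, 9.87 and 9.69 under PFNA (0.70, SE 0.13, adjusted p = 0.0224). Lipe, hormone-sensitive lipase, rose by 0.56 (SE 0.11, adjusted p = 0.033), with 6.05, 6.31 and 5.97 against 6.70, 6.69 and 6.61. The droplet coat gene Cidec gave 0.95 (adjusted p = 0.606). The call of Mid1ip1 ended without any 1 of the 6 arrays (adjusted p up to 0.105), that of Lipe without any but control replicate 2 (up to 0.119) and that of Pnpla2 without control replicate 1 or 3 or PFNA replicate 2 or 3 (up to 0.105).

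None of 19 measured cholesterol synthesis and uptake genes passed limma's test (6 with an unadjusted p under 0.05), with a median of 0.32. The largest differences were 1.04 for Nsdhl (adjusted p = 0.18) and 0.89 for Lss, lanosterol synthase (adjusted p = 0.0752). None of 12 bile acid synthesis genes passed (0 unadjusted). Cyp7a1, the rate-limiting enzyme of bile acid synthesis, ranged from 9.11 to 11.40 in the controls and from 9.03 to 10.14 under PFNA, a difference of -0.70 (confidence interval -2.42 to 1.02) that these arrays cannot place on either side of 0. Of 17 hepatic carriers and pumps 1 rose, Abcc3. None of 15 apolipoprotein and lipoprotein genes passed (3 unadjusted), although Pltp, the phospholipid transfer protein, was higher in all PFNA arrays (10.50 to 11.26, against 9.13 to 9.64; 1.34, adjusted p = 0.0544).

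Of 14 genes of glucose production and use 1 fell, Ppargc1a, described above. The median difference was -0.01, 7 of the 14 differences were above 0, and 6 genes had an unadjusted p under 0.05. The largest difference was that of Igfbp1 at -1.22, which did not pass limma's test (adjusted p = 0.375). Pck1, the gluconeogenic enzyme that Ppargc1a drives, had 12.77, 12.72 and 12.47 in the controls and 11.62, 12.05 and 11.42 under PFNA, and the lower values missed the threshold (-0.96, SE 0.24, adjusted p = 0.0757). None of 21 urea cycle and amino acid genes passed (2 unadjusted; median -0.08).

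Genes that differ between the sexes moved without a common direction. Of 14 measured female-predominant genes 2 rose (14.3%, against 0.505% of all genes), Cyp2b9 and Cyp3a44, and 1 fell, with a median of 0.28. Of 12 male-predominant genes 2 rose (16.7%), Cyp4a12a and Cyp4a12b, with a median of -0.11. The gene that fell, Cyp17a1, a steroid hydroxylase that supplies androgen precursors, had the largest fall of the named genes. It had 8.37, 8.49 and 8.81 in the controls and 5.86, 6.63 and 6.82 under PFNA, a fall of 2.12 on the log2 scale (SE 0.31, confidence interval -2.77 to -1.47, adjusted p = 0.00614), or 4.35-fold. The call held without any 1 array (highest adjusted p = 0.035). None of 8 growth hormone signalling genes passed (1 unadjusted).

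Other named genes among the 10 largest rises have roles outside these lists. Serpinb1a, an inhibitor of neutrophil proteases, rose by 2.16 (SE 0.36, adjusted p = 0.0122), from 4.01, 4.71 and 4.45 to 6.17, 6.54 and 6.93. Slc35f2, a membrane carrier, had 5.06, 5.89 and 5.88 in the controls and 7.29, 7.43 and 7.41 under PFNA (1.77, SE 0.28, adjusted p = 0.0102). Krt23, a keratin, rose by 1.71 (SE 0.29, adjusted p = 0.0125) from 5.83, 5.62 and 6.25 to 7.64, 7.60 and 7.59. In these 3 genes the PFNA arrays lay above all 6 unexposed arrays. Themis, known for its part in thymocyte selection, rose by 1.76 (SE 0.38, adjusted p = 0.045). Its PFNA arrays (6.58, 5.81 and 7.21) lay above the low-fat controls (4.51, 5.31 and 4.50) but not above the high-fat controls (6.13 to 6.50).

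Besides Cyp17a1 and Ppargc1a, 8 named genes made up the 10 largest falls. Vmn1r127, named as a vomeronasal receptor, fell by 1.95 (SE 0.39, adjusted p = 0.0274) from 5.78, 7.06 and 5.44 to 4.49, 3.69 and 4.25. Btbd35f16 fell by 1.13 (adjusted p = 0.0193) and Rpl22l1, a ribosomal protein paralog, by 0.78 (adjusted p = 0.0163), both at signals below the median of all values. Slc28a2, a nucleoside carrier, had 5.08, 5.18 and 5.24 in the controls and 4.41, 3.84 and 4.15 under PFNA, a fall of 1.03 (SE 0.19, adjusted p = 0.0192). Ip6k2, an inositol hexakisphosphate kinase, fell by 0.85 (adjusted p = 0.0455), the pseudogene Cyp2d37-ps by 0.79 (adjusted p = 0.0125), the tetraspanin Tspan31 by 0.73 (adjusted p = 0.0105) and Foxn3, a forkhead repressor, by 0.70 (adjusted p = 0.0295). Each of these 8 calls, and those of Serpinb1a, Slc35f2, Krt23 and Themis, ended without at least 1 array: Slc35f2 without PFNA replicate 3 (adjusted p = 0.0581), Serpinb1a without control replicate 1 or PFNA replicate 3 (up to 0.0867), Krt23 without these or control replicate 2 (up to 0.0723), Cyp2d37-ps and Tspan31 without control replicate 1 or PFNA replicate 3 (up to 0.0879 and 0.0744), Rpl22l1 without control replicate 1 or 2 or PFNA replicate 2 or 3 (up to 0.086), Btbd35f16 without control replicate 1 or 3 or PFNA replicate 1 or 3 (up to 0.113), and the rest without 5 or all 6 arrays (up to 0.204).

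Markers of other liver cells were higher under PFNA without passing. All 13 Kupffer cell markers had differences above 0 (51.6% of all genes had), with a median of 0.57, 0 passed limma's test and 7 had an unadjusted p under 0.05. Their summed signal, taken off the log2 scale, ranged from 2141 to 3298 in the controls and from 3550 to 4197 under PFNA, and from 1811 to 4192 in the high-fat controls. The largest difference was that of Cd68, a lysosomal protein of macrophages (6.70, 7.19 and 7.90 against 8.59, 8.32 and 8.68; 1.27, adjusted p = 0.0683). All 14 sinusoidal endothelial markers were likewise above 0, with a median of 0.52, 0 passed and 12 had an unadjusted p under 0.05. In 13 of the 14 the PFNA arrays lay above all 3 controls, as for 12.8% of all genes, and their summed signal ranged from 3577 to 4766 in the controls, from 5839 to 6041 under PFNA and from 3644 to 5153 in the high-fat controls. Lyve1, a hyaluronan receptor of these cells, gave 1.23 (adjusted p = 0.0683), and Oit3 0.96 (adjusted p = 0.0518). No Kupffer or endothelial marker lay below the median of all values. The sum of the 9 hepatocyte markers ranged from 73297 to 76601 in the controls and from 69636 to 72114 under PFNA, without overlap, and their median difference was -0.10. PFOS on the low-fat diet, against the same controls, gave medians of 0.49 for the Kupffer and 0.36 for the endothelial markers, and PFNA on the high-fat diet gave -0.01 and 0.07. The part of these shifts in the gene differences above was not tested.

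Other lists gave few or no calls. Stellate cell, lymphocyte, neutrophil, cholangiocyte, adipocyte, pancreas and erythroid markers had 0 calls by limma's test, with 1 of 12, 4 of 13, 2 of 11, 0 of 7, 0 of 7, 0 of 7 and 0 of 3 measured members at an unadjusted p under 0.05 and medians of 0.18, 0.19, 0.09, 0.09, 0.26, -0.08 and 0.06. Among 24 cell cycle genes 1 rose, Mcm2, a subunit of the replicative helicase (4.95, 5.03 and 5.04 against 5.81, 5.72 and 6.09; 0.87, adjusted p = 0.0388, lost without any 1 of the 6 arrays, up to 0.193). In the cell cycle list 8 of the 24 had an unadjusted p under 0.05 in limma's test, and 19 differences were above 0 (79.2%, against 51.6% of all genes). None of the pericentral (11 measured, 2 unadjusted), periportal (8, 2 unadjusted), endoplasmic reticulum stress (16, 4 unadjusted), p53 (15, 3 unadjusted), acute phase (23, 1 unadjusted), complement (21, 2 unadjusted), interferon (17, 6 unadjusted), clock (16, 6 unadjusted) or immediate-early (12, 1 unadjusted) genes passed. Over all genes 13.3% had an unadjusted p under 0.05.

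PFOS was set against PFNA on the same diet. Both molecules carry a perfluorinated chain of the same length and differ in the head group, a carboxylic acid in PFNA and a sulfonic acid in PFOS, but whether they were fed at matched doses is not stated in the labels. For the difference between the compounds 0 of 34472 probes passed limma's test and 1351 (3.92%) had an unadjusted p under 0.05, also 0 passing without any 1 array of the PFNA and PFOS groups or without PFOS replicate 3 and its high-fat counterpart. A missed threshold does not show that the compounds act alike, and the intervals give what remains possible. Gsta4 differed by 0.04 (PFNA minus PFOS, confidence interval -0.26 to 0.34) and Cyp4a12a by 0.04 (-0.25 to 0.32), so that differences above about 0.34 in either gene lie outside the intervals. Cyp2b10 differed by 0.51, with an interval of -0.91 to 1.93 that leaves room for a difference of either sign, as did Gstm3 (0.52, -0.85 to 1.89) and Gstt3 (0.62, -0.19 to 1.43). The PFOS arrays had 9.59, 10.63 and 7.94 for Cyp2b10, the lowest being replicate 3. Without that array and its high-fat counterpart the difference was -0.21 (-1.26 to 0.84) for Cyp2b10 and 0.03 (-0.39 to 0.45) for Gstt3.

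Of the 35 genes that rose or fell and were named by the rule, 4 had an interval of PFNA minus PFOS that did not reach 0. All 4 had fallen under PFNA: Btbd35f16 (-0.66, -1.09 to -0.23), Slc28a2 (-0.47, -0.87 to -0.07), Rpl22l1 (-0.40, -0.69 to -0.11) and Tspan31 (-0.30, -0.55 to -0.05), each with an adjusted p of 0.998. Without the 2 arrays that lay apart 3 intervals did not reach 0, those of Btbd35f16, Tspan31 and Ppargc1a (-0.47, -0.89 to -0.06), while those of Slc28a2 and Rpl22l1 did. Against the low-fat controls, which both comparisons share, Cyp2b10 gave 5.71 under PFNA and 5.20 under PFOS, Cyp2c55 3.72 and 3.33, Gsta4 1.34 and 1.30, and Cyp17a1 -2.12 and -1.86. List medians under PFNA and PFOS were 0.82 and 0.61 for the P450 targets, -0.01 and 0.23 for peroxisomal oxidation and 0.07 and 0.35 for ketogenesis and other PPARA outputs. The PFOS medians include replicate 3, which lay apart, and were not recomputed without it. Whether the list medians differ between the compounds was not tested. Acot2, a mitochondrial thioesterase under PPARA control, differed by -0.94 between the compounds (-1.84 to -0.04, unadjusted p = 0.042), and by -0.35 (-0.82 to 0.11) without the 2 arrays that lay apart. It did not pass the adjusted threshold, as no probe did for the difference between the compounds.

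**Figure D4:**
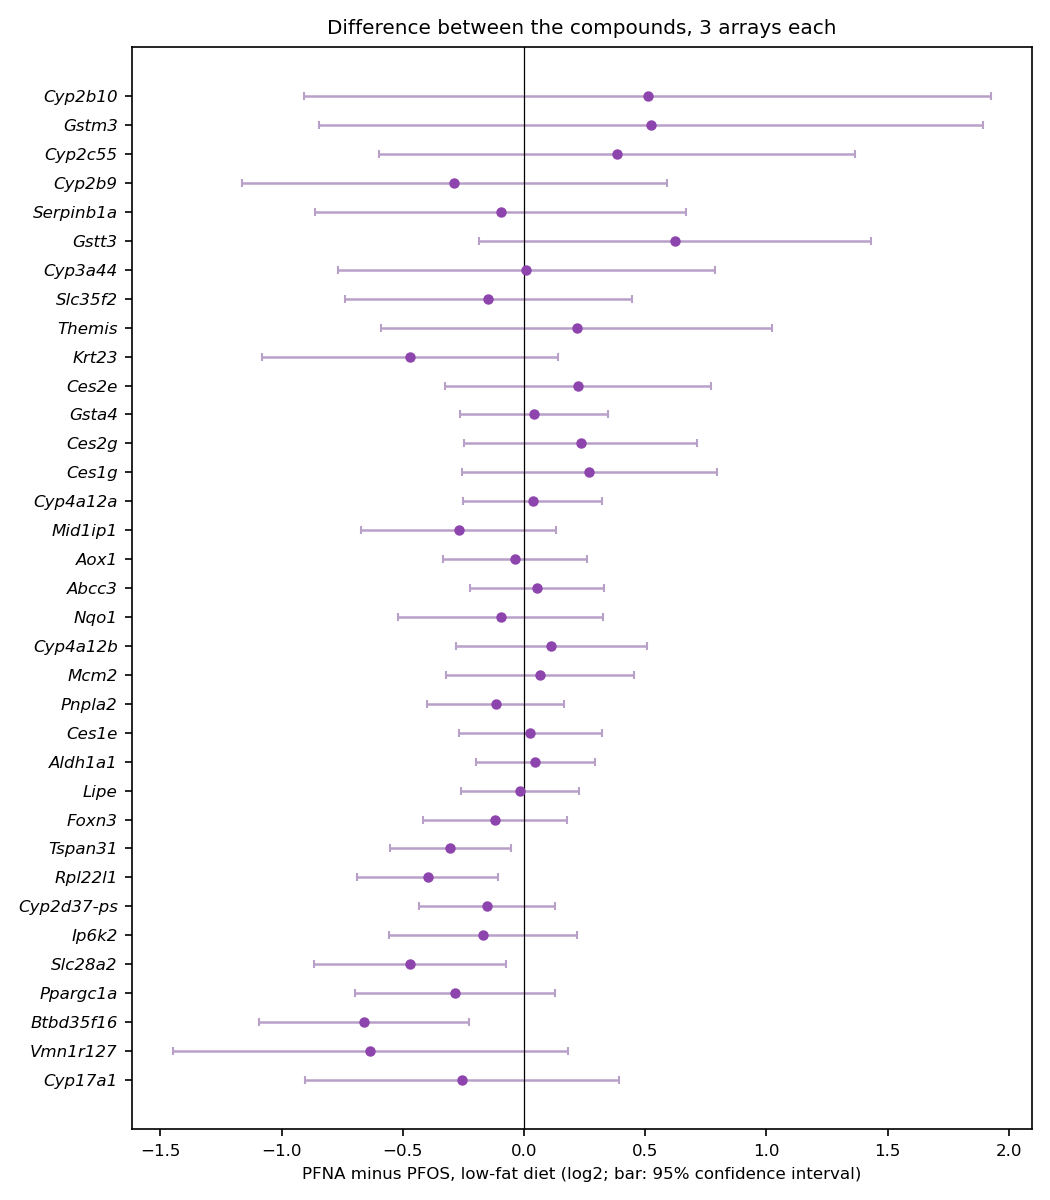
Each point is the difference of PFNA minus PFOS on the low-fat diet (log2, horizontal axis) for 1 of the 35 named genes that rose or fell under PFNA, with its 95% confidence interval from 3 arrays a group. The intervals reach from 0.24 to 1.42 on either side of the point, and 4 of the 35 do not reach 0.

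The PFNA difference was then set beside that on the high-fat diet, which shares no array with it. Of the 129 probes higher on the low-fat diet, 124 (96.1%) had a difference above 0 on the high-fat diet, and of the 66 lower probes 60 (90.9%) had one below 0; over all probes 58.5% had the same sign on both diets. The medians were 0.85 and 0.45 for the higher probes and -1.09 and -0.59 for the lower probes, on the low-fat and the high-fat diet. On the high-fat diet itself PFNA changed 39 probes (0.113%), among them 18 of the 129 and 4 of the 66. Without the high-fat PFNA array that lay apart the same signs were seen for 125 and 60, with medians of 0.48 and -0.63. The probes were chosen for their low-fat difference, so the smaller high-fat medians are a description.

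Cyp2b10 rose on the high-fat diet by 5.26 (adjusted p = 0.00193), with 3.92, 3.88 and 4.49 in the controls and 10.63, 9.75 and 7.70 under PFNA, the lowest being replicate 3. Of the 35 named genes, 9 were called on both diets: Cyp2b10, Cyp2c55, Gsta4, Cyp4a12a, Cyp4a12b, Slc35f2, Krt23, Pnpla2 and Lipe. Krt23 rose by 2.34 (adjusted p = 0.00171) and Slc35f2 by 2.23 (adjusted p = 0.00193). The difference between the diets itself, tested as the interaction of diet and PFNA, passed for 0 of 34472 probes by limma's test, with 1786 (5.18%) at an unadjusted p under 0.05, and for 0 under each alternative. Its interval did not reach 0 for 17 of the 35 named genes, or 19 without the 2 arrays that lay apart, genes that were chosen for their low-fat difference. The interaction for Cyp2b9 was -2.08 (confidence interval -3.32 to -0.84, unadjusted p = 0.00245, adjusted p = 0.942): its high-fat controls already had 11.68, 11.52 and 11.96, and PFNA left them at 11.45, 12.01 and 12.16. For Cyp17a1 it was 1.43 (0.51 to 2.35), with high-fat controls of 8.52, 7.15 and 7.20 and PFNA arrays of 7.01, 6.99 and 6.80. Slc28a2 was the 1 of the 35 whose sign turned, with a high-fat difference of 0.31 (adjusted p = 0.65) and an interaction of 1.34 (0.78 to 1.90, unadjusted p = 1e-04, adjusted p = 0.938). Cyp4a12b differed more on the high-fat diet, 2.05 against 0.90, with an interaction of 1.15 (0.60 to 1.71, adjusted p = 0.938) and lower controls there (9.05, 9.33 and 8.62).

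**Figure D5:**
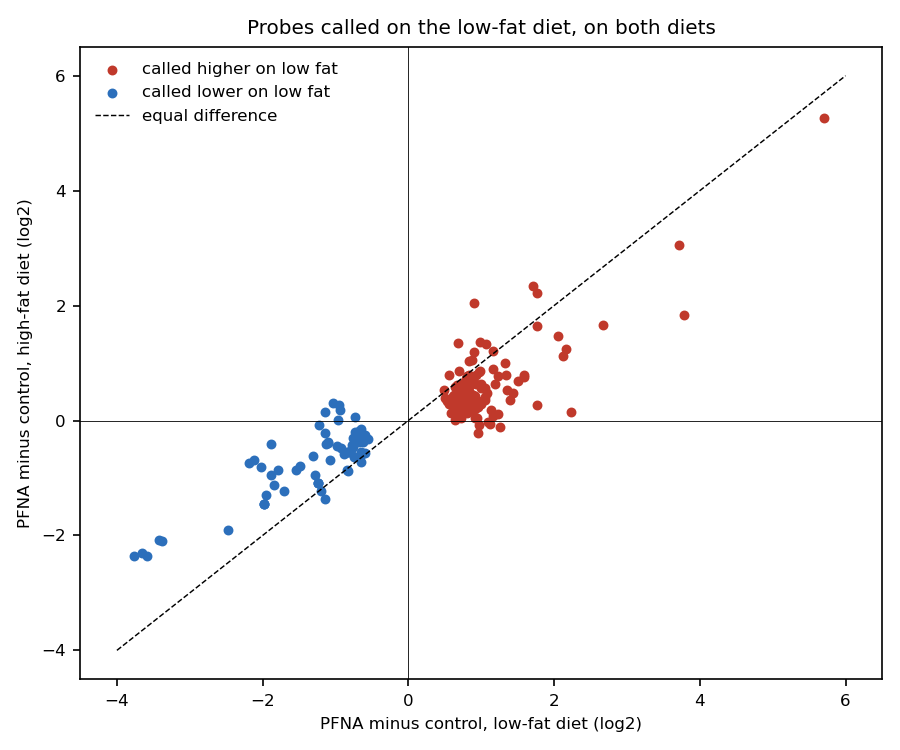
Each point is 1 of the 195 probes called on the low-fat diet, placed by its PFNA minus control difference on the low-fat diet (horizontal axis, log2) and on the high-fat diet (vertical axis, log2), with the 129 higher ones in red, the 66 lower ones in blue and a dashed line of equal difference. Most points lie in the quadrants of equal sign (124 and 60), and Cyp2b10 is the red point farthest to the right.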

How the data were processed

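Liver RNA was extracted with Trizol, biotin-labelled and hybridised to arrays, per the labels' protocols. The deposited value table holds 1 value per probe and array, already normalized by the authors. The labels do not name the log base: the deposited values are read as log2 from their range. Transcriptome Analysis Console is named in the submitters' processing notes, with its version, the normalization and the genome build not given in the sources used here. Array number (3 a group) limits the precision.

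Of 34472 probes, 23521 had 1 gene symbol in the platform annotation, 1814 several and 9137 none. Each gene was read from its probe of highest mean signal. All 18 arrays and 6 groups were fitted in limma 3.58.1 (R 4.3.3; lmFit, eBayes) with 12 residual degrees of freedom, after a check on simulated data, and p-values were adjusted by Benjamini-Hochberg over all probes. Alternatives were quantile normalization, a filter on low signal, a fit of the compared groups only, a replicate block, a trended robust prior, leaving out each array, and, chosen after seeing the data, leaving out the 2 arrays that lay apart. Equal replicate numbers in the low-fat groups were not treated as pairs, except in the replicate block.

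Members and lists (42 lists, 548 of 616 genes measured) were chosen with earlier results of these data known. Named were the 10 largest rises and falls among called genes with 1 symbol (predicted genes, small RNAs and receptor segments left out), up to 4 called members a list, or, with none called, the 2 members with the largest difference. Other genes named were chosen after their values were seen. Sequences are from RefSeq.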

Additional observations from a re-analysis of the deposited data

How the results depend on the processing

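The difference of PFNA from control on the low-fat diet called 195 probes (129 higher, 66 lower). It called 523 (342 higher, 181 lower) when probes of low signal were left out, of which 186 were among the 195, 388 (258 higher, 130 lower) with a trended robust prior, and 593 (383 higher, 210 lower) without the 2 arrays that lay apart on the first component. Leaving out 1 of the 6 arrays gave 26 to 127 calls (14 to 71 higher, 12 to 56 lower), the lowest without PFNA replicate 3. Quantile normalization gave 203 calls and the compared groups alone 194, of which 89 were among the 195. The cause was not tested. Equal replicate numbers correlated at 0.0076, 0.022 and 0.037 and unequal ones at -0.051 to 0.033, which cannot exclude a link between arrays in some genes. The replicate block gave 208 calls. The interaction of diet with PFNA had 0 calls under each of these settings, and so had the difference between PFNA and PFOS, for which the arrays left out in turn were those of the PFNA and PFOS groups. None of the 35 called genes named by the rule changed direction. With the compared groups alone 16 of them lost their call (adjusted p up to 0.12), with quantile normalization 3 (up to 0.0601), with the block 3 (up to 0.0569), with the trended prior 1 (0.0502) and with 1 array left out 16 to 28 (up to 0.215). Of 546 list counts recomputed, 108 moved by more than 1.5 times, and 28 of as many list medians changed sign. Low signals limit Btbd35f16 and Rpl22l1.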

Other observations

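Further genes that rose, chosen after their values were seen, act in metal and vitamin uptake, mitochondria and cell division. Slc39a4, a zinc importer, had 6.44, 6.74 and 6.94 in the low-fat controls and 8.36, 8.64 and 7.90 under PFNA, a rise of 1.59 (SE 0.25, adjusted p = 0.0101 in limma) that held without any 1 of the 6 arrays (highest adjusted p = 0.0477). Slc5a6, a carrier of biotin and pantothenate, rose by 1.08 (adjusted p = 0.024). Uqcrc1, a core subunit of respiratory complex III, rose by 0.75 (adjusted p = 0.0295), from 9.95, 10.23 and 9.97 to 10.84, 10.80 and 10.76. Trap1, a mitochondrial chaperone, rose by 0.92 (adjusted p = 0.0291), and Ndufa8, a complex I subunit, by 0.62 (adjusted p = 0.0204), although its second probe gave -0.32. Ect2, which drives cytokinesis, rose by 1.19 (adjusted p = 0.0101), from 4.42, 5.14 and 4.51 to 5.78, 5.80 and 6.07.

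Several genes with other roles changed as well. Alpl, alkaline phosphatase, rose by 0.98 (adjusted p = 0.0117) and on the high-fat diet by 1.37 (adjusted p = 0.0012), while its second probe gave 0.28 on the low-fat diet. Sulf2, a heparan sulfatase, rose by 0.68 (adjusted p = 0.042) and by 1.35 on the high-fat diet (adjusted p = 0.00053). Cfp, properdin of the complement pathway, rose by 1.23 (adjusted p = 0.0211), with 0.11 on the high-fat diet (adjusted p = 0.92). Tlr5, the flagellin receptor, rose by 0.74 (adjusted p = 0.0224). Vkorc1, the vitamin K reductase, fell by 0.55 (adjusted p = 0.037), from 10.98, 10.99 and 10.71 to 10.39, 10.36 and 10.27. Each of these calls, apart from that of Slc39a4, ended without at least 1 of the 6 arrays, with an adjusted p up to 0.187. A fit of these 6 arrays alone ended those of Trap1 and Vkorc1 (adjusted p up to 0.13), Sulf2, Ndufa8, Tlr5 and Uqcrc1, and the replicate block those of Vkorc1 and Sulf2, the latter also lost with quantile normalization.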
